A study of Mus musculus with 6 samples.

Results

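The hepatic bile acid and organic anion transporters are described here as 10 genes out of the 28450 in the deposited table. They were taken by symbol and grouped by where the protein sits in the hepatocyte membrane: 4 basolateral uptake carriers (Slc10a1, Slco1a1, Slco1a4 and Slco1b2), 3 canalicular exporters (Abcb11, Abcb4 and Abcc2) and 3 basolateral exporters (Abcc3, Abcc4 and Slc51b). Livers came from 3 Acsm3 knockout mice and 3 control mice labelled WT. All 6 animals were males of 12 weeks fed a normal diet, and each gave 1 library of bead-captured mRNA. The sources used here do not give the strain, the cells in which Acsm3 was disrupted, the part of the gene removed or whether controls were littermates. The values are FPKM, fragment counts scaled by gene length and sequencing depth, so that levels can be compared between genes. This scaling does not equalise the livers, as summed FPKM was 364308 to 376083 in knockouts and 385827 to 395208 in controls. Changes of the transporters are therefore also given after median-ratio rescaling.

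Hepatocytes take bile acids up from sinusoidal blood on their basolateral side and secrete them across the apical membrane into the bile canaliculus. Uptake runs through the sodium-dependent carrier NTCP (Slc10a1) and the sodium-independent organic anion transporting polypeptides (the Slco genes), which also carry bilirubin, hormones and drugs. Canalicular secretion uses ATP-driven pumps for bile salts (Abcb11, BSEP), phospholipid (Abcb4, MDR2) and conjugates (Abcc2, MRP2). A further set of exporters returns bile acids and conjugates to the blood (Abcc3 and Abcc4, MRP3 and MRP4, and the OSTα-OSTβ pair, of which Slc51b encodes the β subunit). In mouse liver Slco1a1 is known as male-predominant and Slco1a4 as female-predominant.

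Acsm3, the targeted gene, was at 0.668, 2.92 and 1.08 FPKM in knockouts 1, 2 and 3, against 33.2, 34.4 and 32.2 FPKM in controls 1, 2 and 3. Totals implied by the steps between low FPKM values were 15300000 to 16300000 fragments a library. Across all 10996 tested genes the median log2 fold change was 0.13, so most genes sat slightly above 0 and changes of the transporters are read against that shift. The shift was 0.00 after median-ratio rescaling. Principal component 1 (56.1% of the variance) placed knockout 3 (score 10.15) on the control side of knockouts 1 and 2 (24.58 and 27.73), with all controls at -17.25 or below. Summed FPKM of 11 hepatocyte markers ran from 32722 to 35954 in knockouts and from 44127 to 53008 in controls. Most of each sum was Alb, at 21103 to 24029 FPKM in knockouts and 30151 to 37369 FPKM in controls. Of the 11 markers 4 fell, Alb, Ttr, Hpd and Pck1 (limma, adjusted p under 0.05), and the others were not called. In bulk liver, fewer cells of a type and less RNA per cell cannot be told apart.

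In knockout livers the sodium-dependent bile acid carrier Slc10a1 fell to less than 0.5 of its control level, while the bile salt pump Abcb11, the phospholipid flippase Abcb4 and the basolateral exporters Abcc3 and Abcc4 rose. Averaged over the 6 livers, 9 of the 10 transporters reached 1 FPKM, the level required for testing by limma over the whole table. Of these, 5 passed a Benjamini-Hochberg adjusted p of 0.05, 4 higher and 1 lower, where 16.5% of all tested genes passed, 13.9% in the higher and 2.61% in the lower direction. Abcc4 passed the level filter only through its knockout values, so its place among the tested genes is not independent of its rise. In FPKM, knockout and control values did not overlap for 5 transporters that were higher and 2 that were lower in knockouts. Of all tested genes 41.8% did not overlap, with 33.9% above and 7.91% below controls. On median-ratio rescaled values the numbers of transporters were 4 and 3, against 19.3% and 18.9% of genes, and the calls of limma were again 4 higher and 1 lower, against 7.64% and 6.69% of genes.

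**Figure D1:**
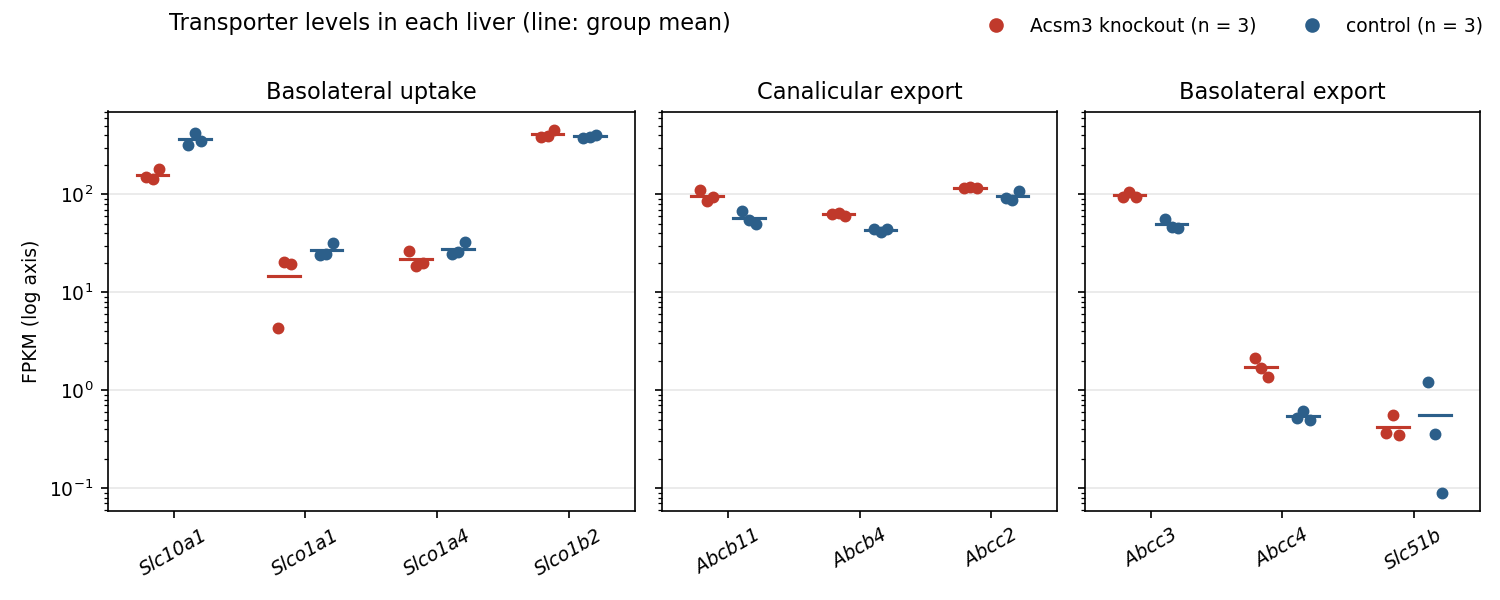
FPKM of the 10 transporters on a log axis, in 3 panels by membrane role. Each point is 1 liver (knockouts in red on the left of each pair, controls in blue on the right, 3 livers each) and each line a group mean. Slc10a1 lies lower and Abcb11, Abcb4, Abcc3 and Abcc4 lie higher in the knockouts without overlap, and knockout 1 stands below all other livers for Slco1a1.

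The stretches of 250 bases before the start site are shown for 4 of the 5 transporters that limma called, because these are the genes on which the comparison turns. They come from RefSeq (GRCm38.p6), whose table matched 9 of the 10 transporters, all but Abcc3. Capitals mark matches to any of 4 core motifs searched on both strands: TGACNNNGC (the antioxidant response element core), TTCNNNGAA (the STAT core), GTTAAT (an HNF1 core) and AGGTCA (the nuclear receptor hexamer).
Slc10a1 (chr12:80968706-80968955, minus strand): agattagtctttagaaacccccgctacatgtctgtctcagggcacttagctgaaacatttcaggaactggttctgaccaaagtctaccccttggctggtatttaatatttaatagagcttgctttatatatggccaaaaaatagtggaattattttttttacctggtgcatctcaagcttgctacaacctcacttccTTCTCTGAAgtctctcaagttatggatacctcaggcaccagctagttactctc
Abcb11 (chr2:69342617-69342866, minus strand): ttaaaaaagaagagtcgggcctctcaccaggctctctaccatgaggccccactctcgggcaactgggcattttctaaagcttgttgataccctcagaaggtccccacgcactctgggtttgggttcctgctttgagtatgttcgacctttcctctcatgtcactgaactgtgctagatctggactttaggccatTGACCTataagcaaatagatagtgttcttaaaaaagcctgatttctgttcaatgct
Abcb4 (chr5:8893471-8893720, plus strand): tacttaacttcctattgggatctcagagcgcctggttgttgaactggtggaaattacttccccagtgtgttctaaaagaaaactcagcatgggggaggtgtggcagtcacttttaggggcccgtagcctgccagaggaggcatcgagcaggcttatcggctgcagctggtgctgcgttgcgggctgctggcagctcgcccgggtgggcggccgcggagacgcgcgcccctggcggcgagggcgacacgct
Abcc4 (chr14:118706220-118706469, minus strand): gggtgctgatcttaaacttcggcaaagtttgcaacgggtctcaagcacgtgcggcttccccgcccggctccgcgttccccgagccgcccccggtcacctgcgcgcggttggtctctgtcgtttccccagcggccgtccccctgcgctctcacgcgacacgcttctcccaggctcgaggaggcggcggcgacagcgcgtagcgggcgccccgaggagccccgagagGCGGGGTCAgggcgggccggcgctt
In the Slc10a1 stretch the STAT core lies at positions -53 to -45 from the start, and in that of Abcb11 the hexamer lies on the opposite strand at -56 to -51. The Abcc4 stretch holds an antioxidant core on the opposite strand at -25 to -17, and the Abcb4 stretch holds none of the 4 motifs. A second RefSeq start of Abcc4, 29288 bases further along the gene, also has an antioxidant core, at -23 to -15, as does the start of Abcc2 at -98 to -90. The hexamer was also found at Slco1a1, Slco1b2, Abcc2, Slc51b and a second start of Slc10a1, the STAT core at Slco1b2 and Slc51b, and the HNF1 core at Slco1b2 alone among the transporters. No match overlapped another. Among all 32851 stretches in the table, 10.2% hold the antioxidant core, 7.02% the STAT core, 6.43% the HNF1 core and 14% the hexamer. These letters were matched in sequence only, and no binding was measured.

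Slc10a1 (ENSMUSG00000021135, chromosome 12, 80953183 to 80968705, minus strand, GRCm38) encodes NTCP, the main route of conjugated bile acids into hepatocytes. It was at 151, 145 and 182 FPKM in knockouts 1, 2 and 3, against 322, 421 and 354 FPKM in controls 1, 2 and 3. Every knockout liver lay below every control liver, and the lowest control was well above the highest knockout. The means were 159 ± 20 FPKM in knockouts and 366 ± 50.4 FPKM in controls (SD, n = 3 each), a ratio of 0.436. The log2 fold change was -1.19 ± 0.13 (moderated SE, limma, adjusted p = 0.00638). The call held in each of the 6 fits that left out 1 mouse, with adjusted p from 0.00479 to 0.0342.

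The other uptake carriers did not pass the test. Slco1b2, which encodes the main hepatic OATP of the mouse, was at 384, 397 and 458 FPKM in knockouts 1, 2 and 3, and at 379, 386 and 405 FPKM in controls 1, 2 and 3. The groups overlapped, and limma gave a log2 fold change of 0.08 ± 0.09 (adjusted p = 0.578), below the median of all genes. Its sign turned under median-ratio rescaling (-0.09). Slco1a4 was at 26.7, 18.5 and 20 FPKM in knockouts 1, 2 and 3, and at 24.7, 25.5 and 33.0 FPKM in controls 1, 2 and 3. Knockout 1 lay among the controls and the other knockouts lay below all of them. Its log2 fold change of -0.34 ± 0.16 did not pass (limma, adjusted p = 0.187).

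Slco1a1 was at 4.32, 20.4 and 19.5 FPKM in knockouts 1, 2 and 3, against 24.0, 24.7 and 31.5 FPKM in controls 1, 2 and 3. All knockouts lay below all controls, but knockout 1 stood far below the other knockouts. The coefficient of variation was 61.3% among knockouts and 15.4% among controls. The log2 fold change of -1.05 ± 0.52 did not pass (limma, adjusted p = 0.194). Without knockout 1 it was -0.40 (adjusted p = 0.125), so that the size of this difference rested on that 1 liver. In the same liver Slco1a4, also on chromosome 6, was the highest of the 3 knockouts. Slco1a1 and Slco1a4 share stretches of 50 bases with each other, Slco1a5 and Slco1a6 in GENCODE M21 transcripts, amounting to 1.64% and 1.61% of all such stretches. The sources used here do not give how fragments shared by paralogs were counted.

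The fall of Slc10a1 changed the make-up of uptake carrier mRNA. Slc10a1 made up 26.7%, 25% and 26.8% of the summed FPKM of the 4 uptake genes in knockouts 1, 2 and 3, against 43.0%, 49.1% and 43.0% in controls 1, 2 and 3. Slco1b2 made up 67.4% to 68.3% in knockouts and 45% to 50.5% in controls. The ratio of Slc10a1 to Slco1b2 within each library, which no single scaling factor per library can move, was 0.385 ± 0.0178 in knockouts and 0.938 ± 0.132 in controls (SD, n = 3 each). The summed level of the 4 genes was 566, 582 and 679 FPKM in knockouts and 750, 857 and 824 FPKM in controls, without overlap. Slco1a1 and Slco1a4 each held 4.72% or less of the sum in every liver. These sums and ratios are over chosen genes and were not tested.

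**Figure D2:**
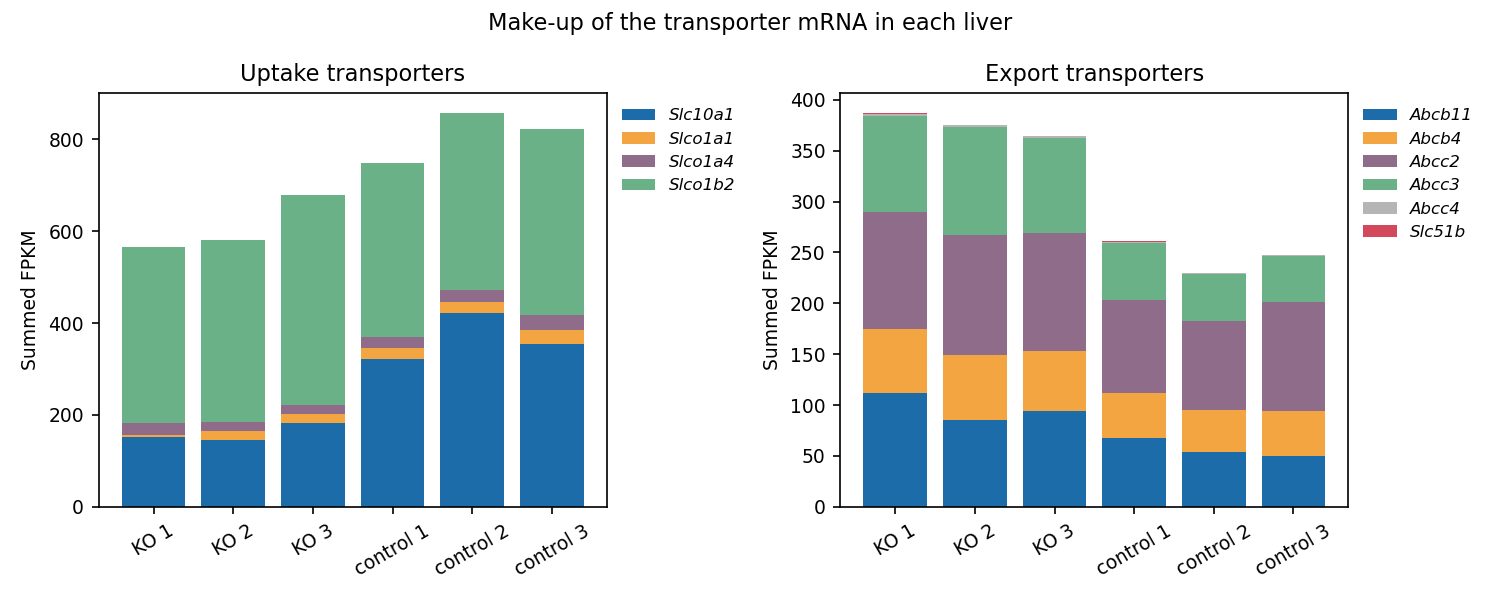
Summed FPKM of the uptake genes (left) and of the 6 export genes (right) in each liver, with knockouts (KO) 1 to 3 left of controls 1 to 3 and each colour a gene. The Slc10a1 segment of the uptake bars is smaller in the 3 knockouts (145 to 182 FPKM) than in the 3 controls (322 to 421 FPKM), and the export bars are taller in the knockouts.

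Of the canalicular exporters, Abcb11 and Abcb4 rose. Abcb11 (ENSMUSG00000027048, chromosome 2, 69238282 to 69342616, minus strand), which encodes the bile salt export pump, was at 112, 85.5 and 93.8 FPKM in knockouts 1, 2 and 3. In controls 1, 2 and 3 it was at 67.7, 54.2 and 49.7 FPKM. Every knockout lay above every control, and each group spread by about the same share of its mean (coefficients of variation of 14.2% and 16.3% in knockouts and controls). The ratio of means was 1.7 and the log2 fold change 0.76 ± 0.15 (limma, adjusted p = 0.0229). The call was lost without knockout 1 (adjusted p = 0.0638), knockout 2 (0.0561), control 2 (0.0799) or control 3 (0.0743), and with no filter on low values (0.0583). Abcb11 shares 136 exonic bases with the antisense gene Gm13613, which had a mean of 0.206 FPKM.

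Abcb4 (ENSMUSG00000042476, chromosome 5, 8893717 to 8959231, plus strand) encodes the flippase that places phosphatidylcholine in bile. It was at 63.2, 64.1 and 59.6 FPKM in knockouts 1, 2 and 3, against 44.1, 41.2 and 44.2 FPKM in controls 1, 2 and 3. Both groups were tight, with coefficients of variation of 3.76% in knockouts and 3.98% in controls. The ratio of means was 1.44 and the log2 fold change 0.52 ± 0.07 (limma, adjusted p = 0.0112). It passed in each fit that left out 1 mouse (adjusted p from 0.0106 to 0.0466). Of its transcript stretches of 50 bases, 2.87% also occur in other genes, among them the multidrug transporters Abcb1a and Abcb1b.

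Abcc2 (ENSMUSG00000025194, chromosome 19, 43782192 to 43840740, plus strand), the canalicular pump for bilirubin glucuronides and glutathione conjugates, carries the description of a predicted gene in the deposited table, while its identifier and position are those of Abcc2 in GENCODE M21. It was at 115, 118 and 116 FPKM in knockouts 1, 2 and 3, and at 91.8, 87.1 and 107 FPKM in controls 1, 2 and 3. The knockouts lay within a narrow band just above the highest control. The log2 fold change of 0.29 ± 0.09 did not pass (limma, adjusted p = 0.0755). It passed with array weights (adjusted p = 0.0328), and after median-ratio rescaling the groups overlapped (0.12, adjusted p = 0.507). The canalicular genes summed to 276 ± 13.0 FPKM in knockouts and 196 ± 11.4 FPKM in controls (SD, n = 3 each).

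Among the basolateral exporters, Abcc3 (ENSMUSG00000020865, chromosome 11, 94343295 to 94392997, minus strand) had the largest rise of any transporter on the log2(FPKM + 1) scale. It encodes MRP3, which returns glucuronides and bile acids to the blood. Its level was 94.3, 106 and 93.3 FPKM in knockouts 1, 2 and 3, against 56.1, 46.3 and 45.8 FPKM in controls 1, 2 and 3. The lowest knockout was well above the highest control, control 1. The means were 98.0 ± 7.29 FPKM in knockouts and 49.4 ± 5.83 FPKM in controls (SD, n = 3 each), a ratio of 1.98. Its log2 fold change of 0.98 ± 0.10 passed (limma, adjusted p = 0.00638), and it did so in each fit without 1 mouse (adjusted p from 0.00725 to 0.0332). Within libraries, the ratio of Abcc3 to Abcc2 was 0.842 ± 0.0507 in knockouts and 0.523 ± 0.0933 in controls, without overlap.

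Abcc4 (ENSMUSG00000032849, chromosome 14, 118482692 to 118706219, minus strand) encodes MRP4, which exports bile acids with glutathione as well as cyclic nucleotides. It was at 2.13, 1.67 and 1.38 FPKM in knockouts 1, 2 and 3, against 0.517, 0.613 and 0.498 FPKM in controls 1, 2 and 3. These values rest on 212, 163 and 143 recovered fragments in knockouts and on 54, 62 and 50 in controls. The lowest knockout was above the highest control, at a level far under that of Abcc3. The ratio of means was 3.18, the largest among the transporters, while the log2 fold change on FPKM + 1 was 0.81 ± 0.13 (limma, adjusted p = 0.0146), because that scale understates changes of low genes. With every detected gene in the fit the adjusted p was 0.0439. The call was lost without knockout 2 (adjusted p = 0.0569), control 2 (0.0527) or control 3 (0.0573), and without knockout 1 the gene fell below the filter. Voom on the recovered fragments gave a log2 fold change of 1.64 (limma, adjusted p = 0.0076).

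Slc51b was near the limit of detection in every liver. It was at 0.362, 0.553 and 0.349 FPKM in knockouts 1, 2 and 3, and at 1.21, 0.356 and 0.0898 FPKM in controls 1, 2 and 3. The values correspond to 4, 6 and 4 recovered fragments in knockouts and to 14, 4 and 1 in controls, and the groups overlapped. It was below the filter, and in the fit with every detected gene its log2 fold change was -0.06 ± 0.26 (limma, adjusted p = 0.91). At this depth no difference of Slc51b could be detected. Its exons share 91 bases with Rasl12 on the opposite strand. Slc51a, its partner subunit, was looked up by symbol but not found under a single entry, so no value is given for it.

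**Figure D3:**
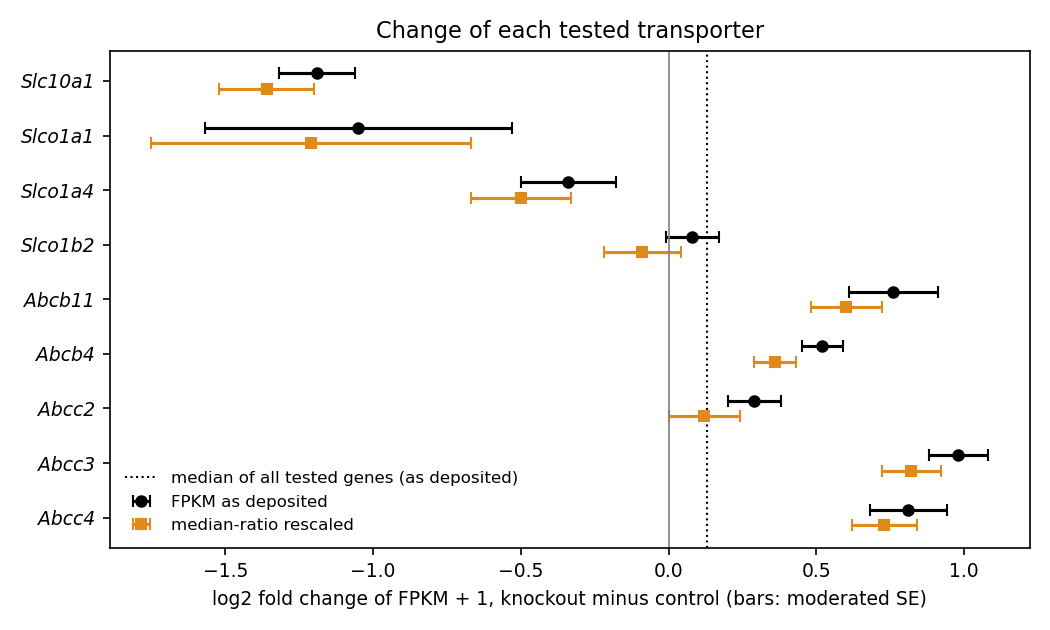
Log2 fold change of FPKM + 1, knockout minus control, for the 9 tested transporters, with bars for the moderated SE. Black points are FPKM as deposited, orange squares are median-ratio rescaled values, and the dotted line is the median of all tested genes (0.13). Rescaling moves the points to the left without ending a call, and turns the sign of Slco1b2 alone.

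Across the membrane roles, the balance of uptake to export mRNA differed between the groups. The summed level of uptake genes was 1.46, 1.55 and 1.87 times that of the 6 export genes in knockouts 1, 2 and 3, against 2.87, 3.73 and 3.33 times in controls 1, 2 and 3. The ratio of Slc10a1 to Abcb11, the carriers of bile salt entry and exit, was 1.66 ± 0.302 in knockouts and 6.55 ± 1.58 in controls (SD, n = 3 each), without overlap. The ratio of Abcb11 to Abcb4 was 1.56 ± 0.225 in knockouts and 1.32 ± 0.205 in controls, with overlap. A single scaling factor per library leaves these ratios as they are, and they are given without a test.

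The order of levels also changed at the top. In knockouts Slco1b2 (413 FPKM on average) stood above Slc10a1 (159 FPKM) without overlap, whereas in controls the ranges of Slco1b2 (390 FPKM) and Slc10a1 (366 FPKM) overlapped and control 2 had more Slc10a1 than Slco1b2. Below them came Abcc2 in each group. Abcc3 and Abcb11 followed in knockouts, at 98.0 and 97.2 FPKM with overlapping ranges, and Abcc3 was above Abcb11 in knockout 2 alone. In controls Abcb11 (57.2 FPKM) came before Abcc3 (49.4 FPKM), again with overlapping ranges, and Abcb11 was the higher in each control liver. Abcb4, Slco1a4 and Slco1a1 followed in that order in each group, and Slco1a4 and Slco1a1 overlapped in both. Abcc4 was above Slc51b in all 3 knockouts, while the ranges of the pair overlapped in controls.

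**Figure D4:**
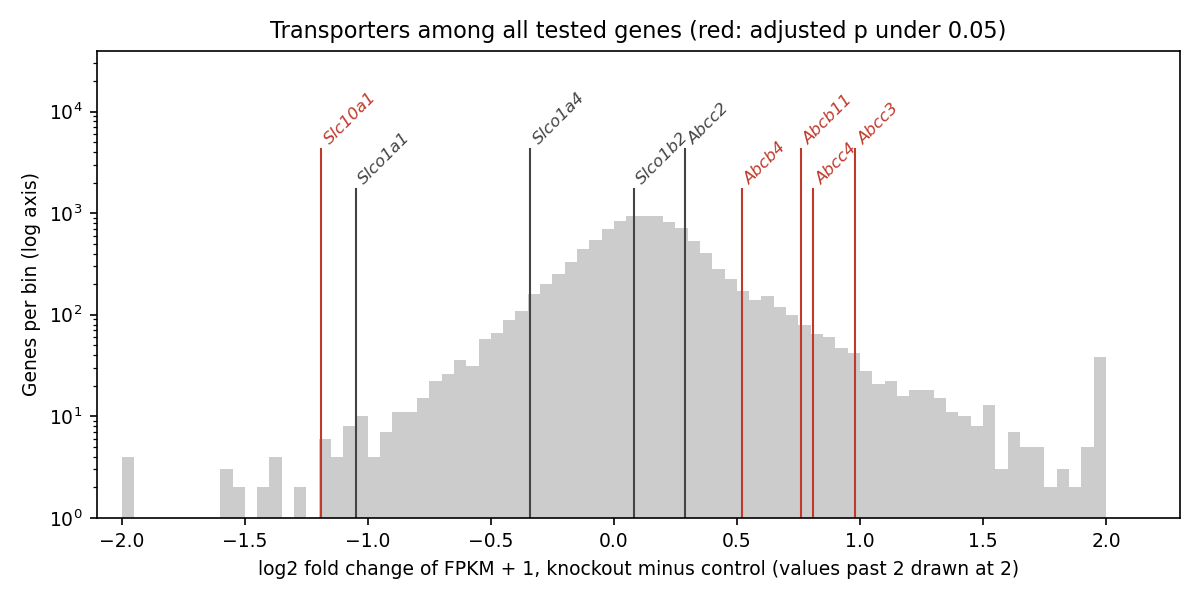
Distribution of log2 fold changes of FPKM + 1, knockout minus control, over the 10996 tested genes (grey, log axis), with the 9 tested transporters as vertical lines, red where limma called them. Slc10a1 (-1.19) lies in the thin lower tail, and Abcb4, Abcb11, Abcc4 and Abcc3 (0.52 to 0.98) lie on the upper flank.

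Genes with the most similar profile over the 6 libraries were sought for the called transporters with the largest rise and the largest fall on the log2(FPKM + 1) scale. Likeness was the root mean square difference of log2(FPKM + 1) after each gene was centred on its own mean. For Abcc3 they were the aldehyde oxidase Aox1 (0.09), the RNA-binding protein gene Rbpms (0.09) and the transcription factor gene Ets2 (0.091), which rose by 0.97, 0.97 and 0.90 on the log2 scale. For Slc10a1 they were the metallothionein Mt2 (0.09), the liver fatty acid binding protein Fabp1 (0.096) and the metallothionein Mt1 (0.11). Their log2 fold changes were -1.26, -1.09 and -1.24, and Mt1 did not pass without knockout 2 or control 3 (limma, adjusted p up to 0.0566). With 2 groups of livers this likeness mostly reflects the difference between groups.

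Other transport genes were counted in 5 lists. The counts of these and the later lists stand beside 13.9% of all tested genes called higher and 2.61% called lower. After median-ratio rescaling those shares were 7.64% and 6.69%. Of 2 tested SLCO genes beyond the members, limma called 0 and 0 had an unadjusted p under 0.05. Slco2b1, another hepatic OATP, was at -0.13 ± 0.07 and Slco2a1, a prostaglandin carrier, at -0.22 ± 0.13, and Slco2b1 passed after median-ratio rescaling (adjusted p = 0.037). Of 3 other SLC10 genes tested 1 rose, Slc10a3 (0.53 ± 0.12), an orphan member. Of 15 tested organic anion and cation carriers 1 rose, the organic anion transporter Slc17a4 (1.24 ± 0.15), and 1 fell, Slc17a2 (-0.47 ± 0.12). The list of other ABC exporters also held Atp7b, which is not an ABC gene, and Abcc9, a channel regulator. Of its 9 tested genes 2 rose, the breast cancer resistance protein Abcg2 (0.48 ± 0.13) and Abcc9 (0.39 ± 0.09). Neither passed after median-ratio rescaling (limma, adjusted p = 0.173 and 0.153). In canalicular support and trafficking 2 of 12 rose, the membrane linker Ezr (0.88 ± 0.17) and the syntaxin Stx3 (0.42 ± 0.11, adjusted p = 0.0742 after rescaling and 0.0597 with the replicate number as a block). Slc17a4 passed without each mouse in turn. Slc10a3, Slc17a2, Abcg2, Abcc9, Ezr and Stx3 each lost their calls without control 1, control 2 or control 3 and without knockout 2. Slc17a2, Slc10a3, Abcc9 and Stx3 also did without knockout 1, and Slc17a2 and Abcg2 without knockout 3 (adjusted p up to 0.145).

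In bile acid synthesis and conjugation 3 of 14 tested genes rose and 2 fell, with a median log2 fold change of -0.03. Cyp2c70, the muricholic acid-forming hydroxylase of mice (1.36 ± 0.31), the sterol 27-hydroxylase Cyp27a1 (0.61 ± 0.15) and the peroxisomal oxidase Acox2 (0.45 ± 0.08) rose. The oxysterol 7α-hydroxylase Cyp39a1 (-0.90 ± 0.14) fell, as did the steroid 5β-reductase Akr1d1 (-0.40 ± 0.09), named after its values were seen and not refitted without 1 mouse. Each call of the first 4 was lost without knockout 1 or control 3, and those of Cyp2c70, Cyp27a1 and Acox2 also without knockout 2 or control 2 (adjusted p up to 0.121). Cyp2c70 did not pass without knockout 3 either. Cyp27a1 did not pass after median-ratio rescaling (adjusted p = 0.067).

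Among 19 regulators of transporter genes 3 rose and 1 fell, with a median of -0.15, and 1 was higher and 4 were lower on rescaled values. Nfe2l2, which encodes NRF2 (0.74 ± 0.14), the hepatocyte factor Hnf4a (0.70 ± 0.12) and Stat5a (0.49 ± 0.10) rose, and Nr1i3, which encodes the xenobiotic receptor CAR (-0.47 ± 0.08), fell. Hnf4a and Stat5a did not pass after rescaling (adjusted p = 0.0522 and 0.0556). Without control 2 or control 3 none of the 4 passed, Nfe2l2, Hnf4a and Nr1i3 also did not without knockout 1, and Stat5a and Nr1i3 did not without knockout 2 (adjusted p up to 0.0929). The bile acid receptor gene Nr1h4 (FXR) was at 69.0, 65.9 and 62.8 FPKM in knockouts 1, 2 and 3, against 77.6, 77.3 and 80 FPKM in controls 1, 2 and 3 (-0.25 ± 0.07, limma, adjusted p = 0.0518). It was chosen for mention after its values were seen.

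Among the 11 lists around the transporters, that of NRF2 target enzymes had the largest share of rises, 12 of 14 tested genes with none lower and a median of 1.24, against 0.13 over all genes. Gstm3 (3.85 ± 0.28), Gsta1 (3.07 ± 0.21), Gsta2 (2.22 ± 0.46) and Gstm1 (1.52 ± 0.19), all glutathione S-transferases with close paralogs, showed the largest. Gsta1 and Cbr3 passed the level filter only through their knockout values (control means of 0.152 and 0.447 FPKM). Their place among the tested genes is thus not independent of their rise. The list genes Nqo1 (0.52 ± 0.16) and Gclm (0.21 ± 0.09) were not called (limma, adjusted p = 0.0673 and 0.144). Abcc3 and Abcc4 are known NRF2 targets in mice and were not in that list. Abcc2, whose start also holds an antioxidant core, was not in it either and was not called (limma, adjusted p = 0.0755). Any part of NRF2 in the changes of the transporters was not tested. Of CAR and PXR target enzymes 2 of 11 rose, Cyp3a11 (1.51 ± 0.10) and Cyp2c55 (1.31 ± 0.32). Within this list Cyp2b10, the marker enzyme of CAR activity, was at 1.85, 1.86 and 77.4 FPKM in knockouts 1, 2 and 3. In controls 1, 2 and 3 it was at 1.39, 0.0897 and 0.181 FPKM. It was not called (2.57 ± 1.26, limma, adjusted p = 0.193) and was chosen for mention after its values were seen. Knockout 3 was also the highest liver for Cyp2c29 (734 FPKM) and Cyp2c55 (4.31 FPKM), but the lowest knockout for Cyp3a11 (754 FPKM). Gsta2 did not pass without knockout 1, knockout 2, control 2 or control 3, and Cyp2c55 did not without any 1 of the controls, knockout 1 or knockout 2 (adjusted p up to 0.112). Cyp2c55 was below the filter without knockout 3 and missed the threshold after rescaling (adjusted p = 0.0505). It too passed the filter only through its knockout values (control mean of 0.239 FPKM).

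Sex-biased liver genes were listed because Slco1a1 and Slco1a4 are themselves sex-biased. Of 12 male-biased genes 3 rose, Mup20 (1.93 ± 0.26), Selenbp2 (1.79 ± 0.17) and C6 (1.43 ± 0.18), and Hsd3b5 (-1.50 ± 0.31) fell. Of 5 tested female-biased genes 3 fell, Acot3 (-2.47 ± 0.22), Cyp17a1 (-2.02 ± 0.22) and Cyp2b9 (-1.58 ± 0.20). Hsd3b5 passed without knockout 3 and in no other fit that left out 1 mouse (adjusted p up to 0.0917), and the other 6 passed in all 6 such fits. Selenbp2 passed the level filter only through its knockout values (control mean of 0.772 FPKM). Hsd3b5 passed it only through its control values (knockout mean of 0.42 FPKM). Knockout 1, which had the lowest Slco1a1, was also the lowest knockout for all listed male-biased genes but Selenbp2 and Nudt7. Mup7, for example, was at 150 FPKM there, against 1007 and 1273 FPKM in knockouts 2 and 3. Of the tested female-biased genes, Cyp2b13 and Cyp2b9 were highest among knockouts in knockout 1, and Acot3, Cyp17a1 and Fmo2 were not. This was read after the values were seen, and any link to Slco1a1 was not tested.

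**Figure D5:**
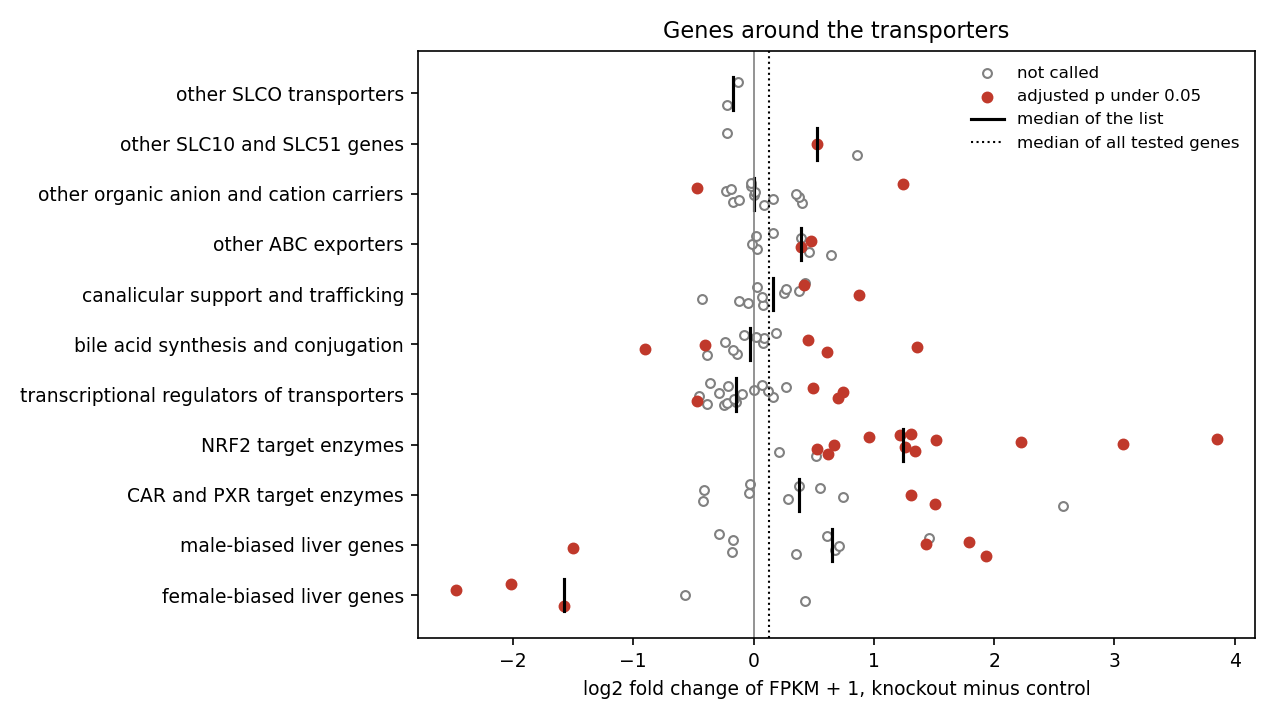
Log2 fold change of FPKM + 1, knockout minus control, of the tested genes in 11 lists around the transporters. Filled red points passed an adjusted p of 0.05 by limma, open points did not, short black lines are list medians and the dotted line is the median of all tested genes (0.13). The NRF2 list lies to the right of the others, with a median of 1.24.

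Markers of other liver cells differed by list. Of 10 stellate cell markers 8 rose (6 after median-ratio rescaling), with summed FPKM of 104 to 140 in knockouts and 55.5 to 65.4 in controls. Among the 8, Col1a1 and Pdgfra passed the level filter only through their knockout values (control means of 0.41 and 0.974 FPKM). For 9 sinusoidal endothelial markers, 3 of which rose, the sums were 89.6 to 117 in knockouts and 72.4 to 81.4 in controls. Of 10 macrophage markers 3 rose and 1 fell (1 higher and 2 lower after rescaling), with overlapping sums of 225 to 429 in knockouts and 166 to 238 in controls. The 10 cholangiocyte markers, a cell type that also uses Abcc3 and Slc51b, summed to 37.8 to 70.4 FPKM in knockouts and 18.5 to 20.8 FPKM in controls. That separation came from Spp1, also a gene of macrophages, which rose and was 1 of 2 tested genes of the list. The other 9 markers summed to 5.68 to 8.13 FPKM in knockouts and 5.33 to 5.98 FPKM in controls, with overlap. The defining keratins Krt7 and Krt19 were at 0.549 FPKM or less in every liver, and no cholangiocyte marker was at 0 in all livers. The part of these cell types in the changes of the transporters was not tested.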

How the data were processed

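Hepatic poly(A) RNA of 6 mice was sequenced, and the authors deposited FPKM of 28450 Ensembl genes as 1 table, per the file headers. Per the submitters' processing notes the build was GRCm38 and the tools StringTie 1.3.0, HISAT2 2.0.4 and Bowtie2 2.2.6, with no roles stated; the sources used here do not give strandedness. Groups and replicate numbers came from the titles. All 10 identifiers of the transporters had the coordinates of GENCODE M21.

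Genes averaging 1 FPKM or more (10996) were fitted as log2(FPKM + 1) with limma 3.58.1 in R 4.3.3 (lmFit, eBayes with trend), knockout minus control, two-sided, adjusted by Benjamini-Hochberg over all genes with calls made under 0.05. Each group was 3 mice, per the series' design text. An exact permutation test of 3 against 3 could not go below p = 0.1 and was not run. FPKM multiplied by union exon length moved in steps of 1 fragment; at the implied totals, low values (under 20 fragments) came within 0.1 of a whole number in 97.9% to 98.1% of cases, and all fragments summed to 102.9% to 103.4% of the totals, which are therefore estimates. Precision covers counting error and animals together.

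Members, lists and motifs were chosen with earlier results of these data known. Named were all members, Acsm3, for each list up to 4 called genes of largest change or, with none called, the 2 of smallest p, and 3 genes of like profile for the largest rise and fall. Alternatives were pseudocounts of 0.1 and 5, no filter, a stricter filter (5 FPKM), scaling by median ratios or quantiles, eBayes without trend, array weights, a replicate block and leaving out each mouse; voom on recovered fragments was added after the data were seen. Python 3.11.15 with pandas 2.3.3, numpy 2.4.6 and matplotlib 3.10.9 was used for tables and figures.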

Additional observations from a re-analysis of the deposited data

How the results depend on the processing

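For the 9 tested transporters, 132 of 142 refitted values under all alternatives kept their sign and their side of the threshold. Slco1b2 turned to -0.0862 after median-ratio rescaling, Abcc2 passed with array weights, and 8 values of Abcb11 and Abcc4 lost the threshold with no filter or 1 mouse fewer; the cause was not tested. In every setting 1 transporter was lower. The number higher was 4, except 3 with no filter (Abcb11 lost) or a filter at 5 FPKM (Abcc4 not tested), 5 with array weights, and 2 to 4 without 1 mouse (2 without knockout 1, knockout 2, control 2 or control 3). Over all genes, 1532 were higher and 287 lower as reported. The numbers were 544 and 106 with no filter, 848 and 260 with a filter at 5 FPKM, 840 and 736 after median-ratio rescaling, 752 and 603 after quantile normalization, and 2742 and 537 with array weights. Without 1 mouse, 226 to 1968 genes were higher and 55 to 282 lower. The filters change how many genes are tested. Fits without 1 mouse rest on fewer livers, yet without knockout 3 more genes were higher (1968) than with all livers (1532). Every other fit without 1 mouse called fewer genes higher, and the reason was not tested. With the replicate block, 1672 genes were higher and 346 lower, no call of a transporter changed, and of the other named genes Stx3 lost its call (adjusted p = 0.0597). Of all named genes, 15 lost their calls with no filter, 7 after median-ratio rescaling and 7 after quantile normalization. Deviations of same-numbered livers correlated at 0.11, 0.09 and 0.19, and every library correlated best with its own number; the titles do not say that a number marks a shared litter or day, so the livers were not treated as pairs. Depth limits Slc51b (1 to 14 fragments a library) and, less so, Abcc4 (50 to 212).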
